A study of Saccharomyces cerevisiae with 36 samples.

Results

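The glycolytic isozyme genes of the budding yeast Saccharomyces cerevisiae encode alternative forms of the enzymes of 4 steps of glycolysis. They were chosen by a list of open reading frame identifiers and make up 10 of the 6600 genes in the deposited files. All 10 were among the 6017 genes that passed the low-count filter. The hexose kinases were HXK1 (YFR053C), HXK2 (YGL253W) and GLK1 (YCL040W). The glyceraldehyde-3-phosphate dehydrogenases (GAPDH) were TDH1 (YJL052W), TDH2 (YJR009C) and TDH3 (YGR192C), the enolases ENO1 (YGR254W) and ENO2 (YHR174W), and the pyruvate kinases CDC19 (YAL038W) and PYK2 (YOR347C).

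Glycolysis turns glucose into pyruvate and yields ATP, and in yeast growing on glucose its enzymes are among the most abundant proteins of the cell. Several steps are encoded by a major gene that is active on glucose and by minor paralogs that are known for higher expression on other carbon sources, in stationary phase or under stress. The hexose kinases phosphorylate the sugar at the entry of the pathway, GAPDH oxidises the triose phosphate, enolase forms phosphoenolpyruvate, and pyruvate kinase turns that into pyruvate.

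Total RNA was sequenced from wild-type (WT) cells of strain BY4742 and from 3 deletion strains of the same background, all grown in rich glucose medium (YPD) at 25 °C to mid-log phase. WT cells carry both genes under study, mpk1Δ cells lack MPK1, rrp6Δ cells lack RRP6, and the double deletion lacks the pair. MPK1, also named SLT2, encodes the mitogen-activated kinase of the cell wall integrity pathway, and RRP6 a nuclease of the nuclear exosome. Each was sampled unheated (0 min) and 10 and 45 min after pre-warmed medium had brought the culture to 42 °C, which gave 12 groups of 3 libraries lettered A, B and C that the series design calls biological replicates. The duration label has no unit and was read as minutes, since minutes are the unit of the labels' treatment text.

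Gene counts summed to between 2235918 and 12072112 in a library. SLT2 was counted 6 times in all in the 18 libraries that lack it against 111 to 1780 in each other library, and RRP6 was counted 2 times against 40 to 1010. BY4742 is a mating type alpha strain without LYS2, URA3 and LEU2, and these had 0, 0 and 1 counts over all 36 libraries. HIS3, of which the strain's allele keeps a part, had 25 to 1164 counts per library. The alpha factor gene MF(ALPHA)1 was counted 92 to 31877 times per library, and the a-specific MFA1, MFA2 and STE2 were counted 3 to 108, 2 to 156 and 12 to 539 times. The heated double-deletion libraries of letter C stood apart from A and B, with TDH1 at 489, 255 and 1599 CPM (counts scaled to the library's size) in A, B and C at 10 min. Reads aligned to several places, which the files tally apart from the genes, made up 4.1% to 9.82% of all reads tallied in WT and mpk1Δ libraries and 9.2% to 26.05% in libraries lacking RRP6. The part of these reads in the values of the near-identical paralogs below was not tested.

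Levels are given as CPM scaled with TMM factors (trimmed mean of M values), listed as replicates A, B and C. Between genes, levels were compared only as CPM per kilobase of coding length, and changes are log2 fold changes ± standard error (SE) with n = 3 libraries per group. The SE was computed from the change and the F statistic of edgeR's test, whose spread is estimated over all 12 groups. A gene is said to have risen or fallen where edgeR's quasi-likelihood test called it, with p-values adjusted by Benjamini and Hochberg over the 6017 genes at a false discovery rate of 0.05. Whether the libraries of groups overlap is given as a description only. The share of all genes without overlap was not computed, so lack of overlap is not shown to be particular to these genes. These values are relative to the bulk of genes, which the TMM factors align between libraries, and are not shares of all gene counts. As such a share, TDH3 held 2.71% in WT and 2.64% in mpk1Δ at 45 min. A change in the amount of RNA per cell is not seen in either measure.

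In unheated WT cells each step was carried by its major gene. TDH3 stood highest at 17288 CPM per kb, followed by ENO2 at 9699, CDC19 at 4194, TDH2 at 3621 and HXK2 at 1149 CPM per kb. The ranges of CDC19 and TDH2 overlapped, and the other neighbours in this order did not. The minor paralogs were all far below, with ENO1 at 142, GLK1 at 26.96, TDH1 at 11.6, HXK1 at 6.996 and PYK2 at 5.63 CPM per kb. HXK1 and PYK2, the lowest, overlapped in range. Together the 10 genes held 4.67% ± 0.378 of gene counts (SD, n = 3), 5.36% ± 0.363 at 10 min and 3.98% ± 0.205 at 45 min, and TDH3 alone held 1.93% at 0 min.

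After 45 min at 42 °C the order in WT was closer together. TDH3 at 40744 and ENO2 at 5258 CPM per kb stayed in the first places. GLK1 at 2395 CPM per kb now came next, with a range that overlapped that of CDC19 at 1629, which in turn overlapped HXK1 at 1517 CPM per kb. HXK2, at 773 CPM per kb, lay below the ranges of all of these. In mpk1Δ at 45 min TDH2, TDH1, CDC19, ENO1 and GLK1 formed an unbroken run of overlapping neighbours between 3802 and 2661 CPM per kb. In rrp6Δ at 45 min HXK1, at 3769 CPM per kb, overlapped the range of ENO2 at 4183.

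**Figure D1:**
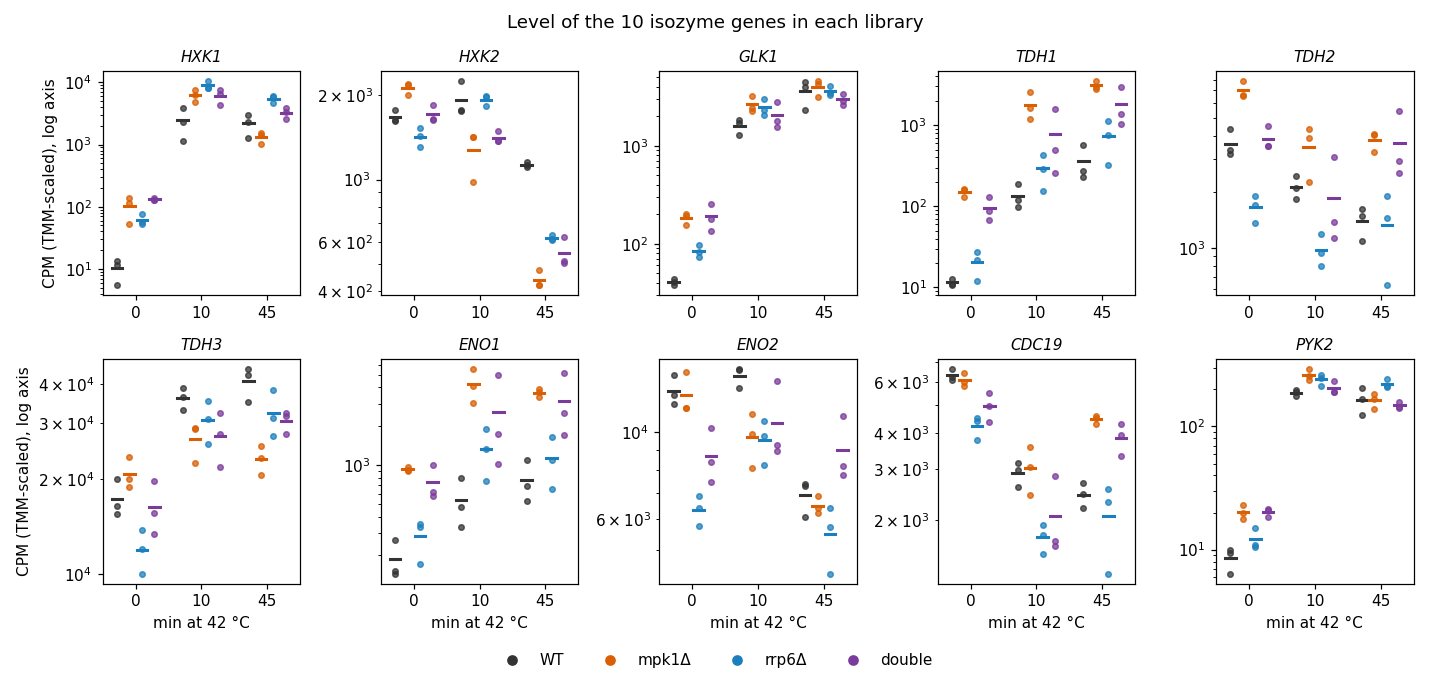
Level of each of the 10 genes in each of the 36 libraries (TMM-scaled CPM, log axis) against minutes at 42 °C, with 1 colour per strain and a bar at the mean of 3 libraries. HXK1, GLK1, TDH1, ENO1 and PYK2 lie higher in every heated than in every unheated library of the same strain, while CDC19 and TDH2 lie lower in WT at both times.

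In WT the 5 minor paralogs and the major gene TDH3 rose with heat at both times. The other 4 major genes fell at 45 min, and of these TDH2 and CDC19 also fell at 10 min. At 10 min 6 members rose, against 38.3% of all genes tested, and 2 fell, against 36.2%. At 45 min 6 rose against 41.0% and 4 fell against 39.2% of all genes. The members' median log2 fold changes were 1.3 and 1.64, beside 0.04 and 0.04 over all genes tested. Between 10 and 45 min 2 rose, against 25.0%, and 2 fell, against 21.8% of all genes.

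The same 5 minor paralogs, HXK1, GLK1, TDH1, ENO1 and PYK2, rose at both times in each of the 3 deletion strains. In mpk1Δ 5 members rose and 3 fell at 10 min, against 40.5% and 36.9% of all genes, and 5 rose and 4 fell at 45 min, against 42.4% and 39.5%. In rrp6Δ 8 rose and 2 fell at 10 min, against 37.2% and 37.7%, and 6 rose and 2 fell at 45 min, against 40.5% and 39.0%. In the double deletion 6 rose and 2 fell at 10 min, against 37.3% and 37.3%, and 6 rose and 1 fell at 45 min, against 39.9% and 37.9%. Since heat moved about 3 in 4 of all genes in either direction, the number of members called is near this background. Within a strain the comparisons of 10 and 45 min share the unheated libraries.

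From 10 to 45 min fewer members moved. In mpk1Δ 2 rose and 4 fell, against 25.6% and 26.4% of all genes. In rrp6Δ 1 rose and 2 fell, against 16.9% and 18.1%, and in the double deletion 2 rose and 3 fell, against 16.9% and 18.3%. HXK2 fell over this interval in all 4 strains, at −0.77 ± 0.14 in WT, −1.53 ± 0.14 in mpk1Δ, −1.64 ± 0.14 in rrp6Δ and −1.37 ± 0.14 in the double deletion on the log2 scale.

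**Figure D2:**
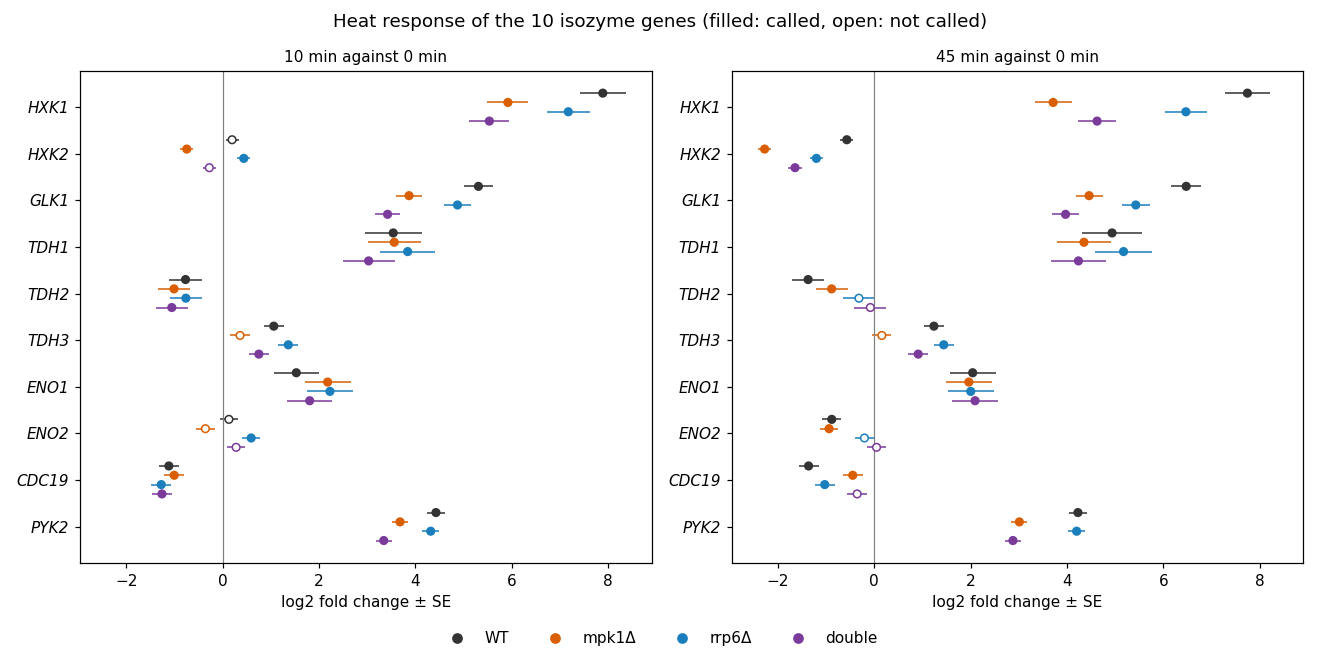
Log2 fold change ± SE of each gene at 10 min (left) and 45 min (right) against 0 min in the 4 strains, filled where the gene passed edgeR's test and open where it did not. HXK1, GLK1, PYK2, TDH1 and ENO1 are filled to the right of zero in all strains, and CDC19 lies to the left in all of them.

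The hexose kinases showed the greatest shift. HXK1 and GLK1 encode a hexokinase and a glucokinase, and HXK2 encodes the hexokinase that predominates on glucose and also takes part in glucose repression. Their promoter windows, made of the 250 bases before the start codon and the first 50 coding bases (300 bases, build R64), are shown because HXK1 and GLK1 moved together and away from HXK2. They run 5′ to 3′ on the coding strand, and capitals mark the motifs searched on both strands, which were the stress response element CCCCT, the heat shock element GAANNTTC and the Gcr1 core CTTCC.
GLK1, chrIII:50588-50887, plus strand: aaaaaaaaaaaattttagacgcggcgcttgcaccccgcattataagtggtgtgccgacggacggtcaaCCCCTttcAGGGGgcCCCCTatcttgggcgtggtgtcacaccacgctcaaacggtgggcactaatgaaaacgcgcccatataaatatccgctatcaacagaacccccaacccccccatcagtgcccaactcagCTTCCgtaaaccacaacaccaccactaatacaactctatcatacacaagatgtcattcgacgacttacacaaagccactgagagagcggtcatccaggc
HXK1, chrVI:255000-255299, minus strand: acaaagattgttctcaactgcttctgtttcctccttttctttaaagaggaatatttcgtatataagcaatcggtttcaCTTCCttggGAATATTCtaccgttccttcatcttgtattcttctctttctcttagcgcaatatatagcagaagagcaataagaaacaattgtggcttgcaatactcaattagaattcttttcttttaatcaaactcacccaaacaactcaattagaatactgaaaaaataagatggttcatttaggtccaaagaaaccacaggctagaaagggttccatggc
HXK2, chrVII:23685-23984, plus strand: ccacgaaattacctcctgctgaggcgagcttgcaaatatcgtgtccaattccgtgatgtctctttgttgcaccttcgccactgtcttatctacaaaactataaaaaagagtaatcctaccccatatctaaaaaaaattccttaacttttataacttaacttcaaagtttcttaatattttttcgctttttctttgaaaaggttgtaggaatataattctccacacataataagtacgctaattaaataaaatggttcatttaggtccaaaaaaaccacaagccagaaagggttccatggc
The GLK1 window holds 3 stress response elements, as CCCCT or its reverse complement AGGGG, and 1 Gcr1 core. The HXK1 window holds 1 heat shock element next to 1 Gcr1 core, and the HXK2 window holds none of the 3 motifs. Of 6020 promoter windows of the same length, 21.6% held at least 1 stress response element, 2.92% held 2 or more, 11.8% a heat shock element and 46.3% a Gcr1 core, so single matches are common. A match describes letters only.

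HXK1 was close to absent in unheated WT, at 5.48, 11.6 and 13.6 CPM, and stood at 2316, 1154 and 3876 CPM at 10 min and 2313, 1289.5 and 3033 CPM at 45 min. Every heated library was above every unheated one, and the ranges at 10 and 45 min overlapped. It rose by 7.89 ± 0.48 at 10 min (edgeR's adjusted p = 4.07e-15) and 7.74 ± 0.47 at 45 min on the log2 scale. In mpk1Δ it started higher, at 139, 115 and 53.5 CPM, reached 4855, 7464 and 6329 CPM at 10 min and was at 1440.3, 1033 and 1558 CPM at 45 min. In that strain it fell between 10 and 45 min, at −2.21 ± 0.36 (edgeR's adjusted p = 6.73e-06), with no overlap between these groups. The highest levels were those of rrp6Δ, at 8114, 8272 and 10563 CPM at 10 min and 5785, 4651 and 6050.3 CPM at 45 min, from 77.4, 56.2 and 52.9 CPM unheated. The double deletion had levels of 139, 127 and 131 CPM, then 6439.9, 4368 and 7595 CPM and 3868, 3321 and 2583 CPM. The fall in this last strain between 10 and 45 min, −0.91 ± 0.35, was lost without replicate A or C at 10 min or B or C at 45 min (adjusted p 0.0807 to 0.135).

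GLK1 went from 37.7, 40.2 and 43.7 CPM in unheated WT to 1704, 1300.2 and 1818 CPM at 10 min and 4514, 2325 and 3961 CPM at 45 min. None of these 3 groups overlapped. It rose by 5.31 ± 0.29 at 10 min and 6.47 ± 0.31 at 45 min (edgeR's adjusted p = 1.43e-17), and by 1.16 ± 0.25 between these times. At 45 min the 4 strains lay within 2325 to 4514 CPM in WT, 3146 to 4581 CPM in mpk1Δ, 3313 to 4046 CPM in rrp6Δ and 2610.1 to 3404 CPM in the double deletion, which all overlapped. Unheated, the same 4 strains lay at 37.7 to 43.7, 154 to 200.1, 72.4 to 96.3 and 134 to 254 CPM. The deletion strains thus all lay above WT before heat and overlapped it after 45 min. GLK1 shares 106 bases with YCL042W on the same strand, a pair for which reads can be called ambiguous, and YCL042W had 703 counts over all libraries against 377974 for GLK1.

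HXK2 moved the other way at 45 min. It stood at 1623, 1776 and 1634 CPM in unheated WT, 1769, 1754 and 2249.5 CPM at 10 min and 1128, 1151 and 1109.5 CPM at 45 min. The groups at 0 and 10 min overlapped, while all libraries at 45 min were lower, with a change of −0.57 ± 0.14 against 0 min (edgeR's adjusted p = 0.000376). In mpk1Δ it went from 2011, 2198 and 2181 CPM to 978, 1417 and 1421 CPM and 421, 419.8 and 477 CPM, without overlap between the 3 groups. The change at 45 min was −2.28 ± 0.14 in mpk1Δ, −1.2 ± 0.14 in rrp6Δ and −1.65 ± 0.14 in the double deletion. In rrp6Δ it rose at 10 min by 0.44 ± 0.14, a direction that turned to −0.10 when libraries were scaled by total counts only.

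Counted per coding length, HXK2 had given way by 45 min to the other hexose kinases as the main transcript of the step. In WT at 10 min HXK1, at 791 to 2658 CPM per kb, still overlapped HXK2, at 1200 to 1540 CPM per kb. The share of HXK1 in the 3 genes was 0.589% ± 0.2402 in unheated WT, 39.1% ± 10.8 at 10 min and 31.7% ± 5.56 at 45 min (SD, n = 3), and that of GLK1 was 2.28% ± 0.2, 27.2% ± 4.21 and 50.7% ± 4.57. In mpk1Δ the shares of HXK1 were 4.27% ± 1.86, 61.6% ± 1.16 and 23.7% ± 1.35, and those of GLK1 7.35% ± 1.02, 25.7% ± 2.1 and 68.4% ± 1.81. In rrp6Δ at 45 min HXK1 held 57.1% ± 2.24 and GLK1 36.5% ± 1.79, and in the double deletion 48.6% ± 4.63 and 43.2% ± 3.61. The leading transcript at 45 min was thus GLK1 in WT and mpk1Δ and HXK1 in rrp6Δ. In the double deletion their shares overlapped, at 45.8% to 53.9% for HXK1 and 39.1% to 45.6% for GLK1.

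Over the 4 strains the HXK1 share was higher by 54.2 percentage points at 10 min and 36.4 at 45 min than at 0 min, and the GLK1 share by 16.9 and 43.8 points. In each case every heated library of every strain was above its unheated libraries. A two-sided exact permutation test with strain as stratum gave p = 1.25e-05 for all 4 of these, the smallest its 160000 arrangements can give, and 3.13e-05 after Benjamini-Hochberg adjustment over 30 share tests. With time as stratum, the HXK1 share was higher than in WT by 19.1 points in rrp6Δ and 15.96 points in the double deletion (exact permutation test, adjusted p = 0.000357 for both). In mpk1Δ it was higher than in WT at 0 and 10 min and lower at 45 min, and the mean difference of 6.07 points was not called (exact permutation test, adjusted p = 0.177). Averaged over the 3 times, the GLK1 share differed from WT by 7.12 points in mpk1Δ and −6.88 points in rrp6Δ (exact permutation test, adjusted p = 0.0173 and 0.0147). The mpk1Δ share was above WT at 0 and 45 min and overlapped it at 10 min. In rrp6Δ the share was above WT at 0 min, at 5.203% ± 0.617 against 2.28% ± 0.2, and below it at 10 and 45 min, and the call was lost with libraries paired by letter (adjusted p = 0.0586). The share differed by −2.46 points in the double deletion (exact permutation test, adjusted p = 0.312), which was not called. Tests with time as stratum, here and below, take the 3 times as independent. Same-letter libraries correlated between 10 and 45 min in WT, mpk1Δ and the double deletion, so the p-values of these tests may be too small.

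**Figure D3:**
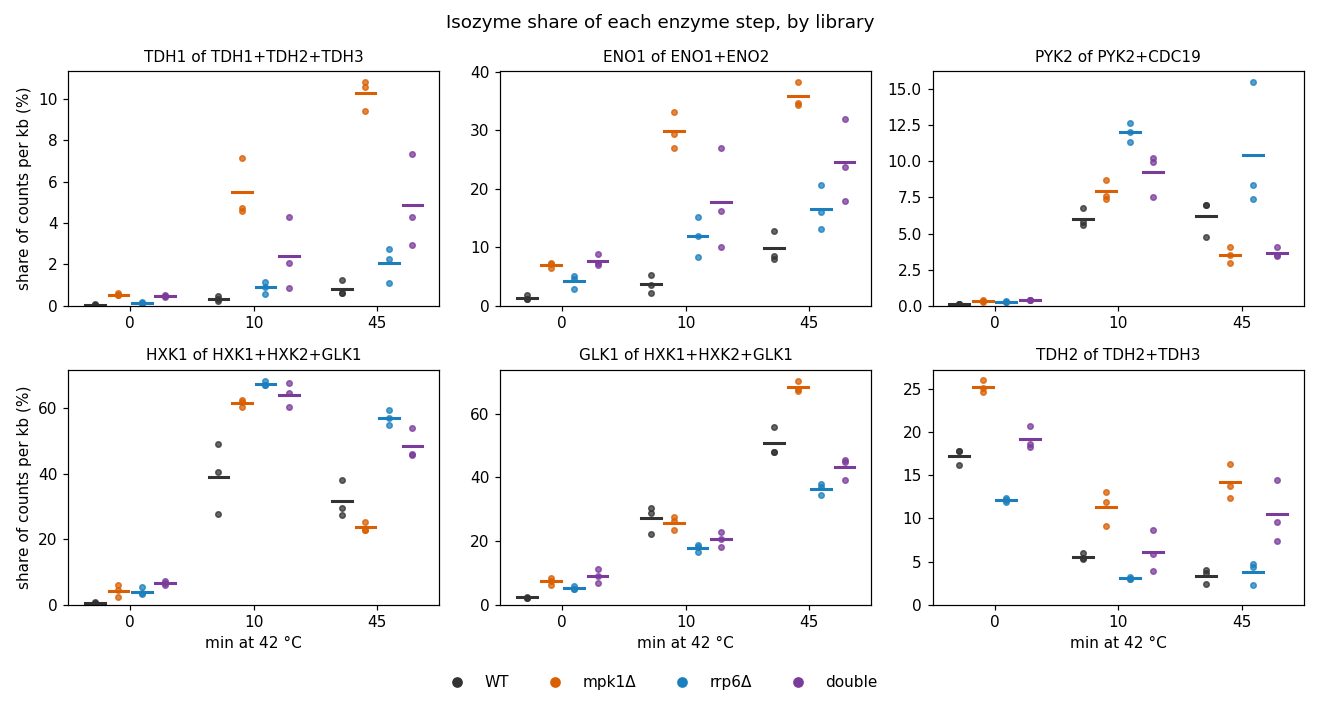
Share of each minor isozyme in the counts per coding length of its step, and of TDH2 in those of TDH2 and TDH3 (percent). Each of the 36 libraries is shown, with a bar at the mean of 3 libraries. HXK1 and GLK1 together hold most of the hexose kinase counts after heat, the share of ENO1 in both heated groups has its highest mean in mpk1Δ, and the share of TDH1 stays at or under 10.8% in every library.

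The GAPDH genes are close copies, which bears on how well their reads can be told apart. The coding sequences of TDH2 and TDH3 are 95.8% identical, those of TDH1 and TDH2 90.2% and those of TDH1 and TDH3 88.9%. The 60 coding bases from 64 to 123 are shown because they are where the 3 genes differ most, with capitals for bases that differ from TDH3, 5′ to 3′ on the coding strand in build R64.
TDH3, chrVII:883688-883747, minus strand: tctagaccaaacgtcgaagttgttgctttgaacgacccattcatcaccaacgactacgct
TDH2, chrX:454559-454618, minus strand: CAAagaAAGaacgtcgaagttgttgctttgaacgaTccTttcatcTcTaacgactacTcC
TDH1, chrX:338334-338393, plus strand: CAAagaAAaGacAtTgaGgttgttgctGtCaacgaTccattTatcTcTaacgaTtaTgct
In this stretch TDH1 differs from TDH3 at 17 bases and TDH2 at 12. Of all 50-base windows, 84.3% of those of TDH1, 68.7% of TDH2 and 75.6% of TDH3 occur at a single place among the coding sequences, and 95.4%, 87.2% and 91.8% of 100-base windows. The read length and the counting mode are not given in the sources used here, and reads that match more than 1 place are tallied apart, so levels of TDH2 and TDH3 relative to each other are uncertain.

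TDH1, a minor isozyme known from stationary-phase cells, was at 10.7, 12.9 and 11.1 CPM in unheated WT, 121, 96.7 and 188 CPM at 10 min and 276, 227 and 569 CPM at 45 min. Each group lay wholly above the one before. It rose by 3.54 ± 0.59 at 10 min (edgeR's adjusted p = 3.46e-06) and 4.93 ± 0.62 at 45 min. In mpk1Δ it was at 131, 165 and 157 CPM unheated, in the range of WT at 10 min, and at 1184, 2548 and 1625 CPM and 2757, 2988 and 3506 CPM at 10 and 45 min. It rose there by 3.56 ± 0.55 and 4.35 ± 0.57, and lay above WT without overlap at all 3 times. In rrp6Δ it was at 12.01, 27.2 and 22.1, 155, 291 and 432 and 318, 761 and 1129 CPM at the 3 times, which overlapped WT at each. The double deletion went from 68.4, 88.1 and 130.2 CPM to 489, 255 and 1599 CPM and 1377, 1036 and 2993 CPM, with replicate C on top at every time.

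From 10 to 45 min TDH1 rose by 1.39 ± 0.51 in WT (edgeR's adjusted p = 0.026) and by 1.33 ± 0.51 in rrp6Δ (edgeR's adjusted p = 0.0401). The WT call was lost without replicate A or B at 10 min or C at 45 min (0.90 to 1.34, adjusted p 0.0699 to 0.182), and the rrp6Δ call without A or B at 10 min or B or C at 45 min (0.86 to 1.31, adjusted p 0.0813 to 0.24). The change of TDH1 in the double deletion was 1.2 ± 0.50 (edgeR's adjusted p = 0.0612) and passed with the replicate letter as a block, at 1.30 (adjusted p = 0.00695).

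TDH2 fell with heat in WT, from 3346, 3186 and 4320.4 CPM to 1834, 2088 and 2445 CPM and 1094, 1476 and 1614 CPM. The 3 groups did not overlap, and the log2 changes were −0.77 ± 0.33 (edgeR's adjusted p = 0.0385) and −1.37 ± 0.34 (adjusted p = 0.000496). The fall at 10 min was lost without WT replicate A or B at 10 min or C at 0 min (−0.72 to −0.62, adjusted p 0.0896 to 0.132). In mpk1Δ TDH2 was higher, at 6654, 6541 and 7867 CPM unheated, and was at 2259, 4342 and 3876 CPM and 3289, 4026 and 4081 CPM after heat, with changes of −1.01 ± 0.33 and −0.89 ± 0.33. Both falls were lost without mpk1Δ replicate A of the heated group (adjusted p 0.057 and 0.0571). In rrp6Δ it was lower, at 1354, 1689 and 1903, 799, 936 and 1183 and 631, 1439 and 1894 CPM, with a change of −0.76 ± 0.33 at 10 min that was lost without replicate A or B at 10 min or B or C at 0 min (adjusted p 0.0729 to 0.146). The change at 45 min in rrp6Δ was −0.32 ± 0.33 and was not called. Between 10 and 45 min the change of TDH2 in WT was −0.61 ± 0.33, which was not called (adjusted p = 0.137) and passed with the replicate letter as a block, at −0.61 (adjusted p = 0.0346). TDH2 rose between these times in the double deletion, by 0.97 ± 0.33, a call lost without replicate A or B at 10 min or C at 45 min (0.56 to 0.79, adjusted p 0.119 to 0.213).

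TDH3, the major GAPDH gene, rose in WT from 15452, 16433 and 19927 CPM to 33120.3, 36404 and 38696 CPM at 10 min and 44444, 35052 and 42613 CPM at 45 min. All heated libraries lay above all unheated ones. The rise was 1.06 ± 0.20 and 1.24 ± 0.20 (edgeR's adjusted p = 2.64e-05 and 2.28e-06). In mpk1Δ it was at 18881, 20002 and 23441 CPM unheated, 22455, 28889 and 28763 CPM at 10 min and 23313, 20607 and 25503 CPM at 45 min. These groups overlapped, and the changes of 0.36 ± 0.20 and 0.16 ± 0.20 were not called (adjusted p = 0.0995 and 0.475). The value at 10 min passed with DESeq2, at 0.38 (adjusted p = 0.0304), with the replicate letter as a block, at 0.36 (adjusted p = 0.0373), and among genes that averaged 5 CPM or more, at 0.42 (adjusted p = 0.0475). In rrp6Δ TDH3 rose by 1.36 ± 0.20 and 1.44 ± 0.20. It also rose in the double deletion, by 0.75 ± 0.20 and 0.91 ± 0.20, of which the first was 0.24 and not called with total counts only (adjusted p = 0.195).

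As a share of the GAPDH counts per coding length, TDH1 remained minor. It made up 0.056% ± 0.0098 in unheated WT and 0.8296% ± 0.381 at 45 min, and 0.543% ± 0.0654 and 10.3% ± 0.768 in mpk1Δ (SD, n = 3). At 45 min it made up 2.04% ± 0.832 in rrp6Δ and 4.86% ± 2.26 in the double deletion. Its share was higher than in WT in every mpk1Δ library of the same time, by 5.02 points on average (exact permutation test, adjusted p = 0.000357). The share of TDH2 within TDH2 and TDH3 fell from 17.3% ± 0.906 to 5.54% ± 0.361 and 3.37% ± 0.856 in WT, and from 25.3% ± 0.718 to 11.4% ± 2.01 and 14.2% ± 2.02 in mpk1Δ. It was lower after heat in every strain, by −11.96 and −10.5 points at 10 and 45 min (exact permutation test, adjusted p = 3.13e-05 for both).

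ENO1 and ENO2 are 94.8% identical in coding sequence, and 76.4% of the 50-base windows and 97.3% of the 100-base windows of each occur at a single place. Their coding bases 340 to 399, the stretch of 60 in which they differ most, are shown with capitals where ENO1 differs from ENO2, at 13 bases (build R64, 5′ to 3′ on the coding strand).
ENO2, chrVIII:451666-451725, plus strand: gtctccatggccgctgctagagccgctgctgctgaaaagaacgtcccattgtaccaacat
ENO1, chrVII:1001266-1001325, plus strand: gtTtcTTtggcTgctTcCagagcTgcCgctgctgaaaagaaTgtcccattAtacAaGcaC
Reads outside such stretches can match both genes, so their relative level carries the same doubt as that of TDH2 and TDH3.

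ENO1, the minor enolase on glucose, was at 152, 145 and 262 CPM in unheated WT and at 478, 335 and 798 CPM and 685, 526 and 1088 CPM after 10 and 45 min. Heated and unheated groups did not overlap, and it rose by 1.53 ± 0.47 and 2.04 ± 0.48 (edgeR's adjusted p = 0.00466 and 0.000304). In mpk1Δ it was at 894, 921 and 973 CPM before heat, 3002, 5512 and 4123 CPM at 10 min and 3653, 3344 and 3857 CPM at 45 min, above WT at all 3 times without overlap. In rrp6Δ it went from 171, 350.02 and 333 CPM to 753, 1330.5 and 1916 CPM and 654, 1099 and 1663 CPM, which overlapped WT at each time. Double-deletion values were 582, 625 and 1007, 1732, 1025 and 4990.4 and 2552, 1704 and 5171 CPM, with C on top. The rise there at 10 min, 1.81 ± 0.47, was 0.94 and not called without replicate C at 10 min (adjusted p = 0.057).

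ENO2, the major enolase, overlapped its unheated range in WT at 10 min and was lower at 45 min. It was at 12439, 11781 and 14012 CPM, then 12949, 14463 and 14473 CPM and 7279, 6056 and 7392 CPM. The change at 45 min was −0.88 ± 0.19 (edgeR's adjusted p = 0.000128), and in mpk1Δ it was −0.94 ± 0.19, to 6873, 6387 and 6205 CPM. In rrp6Δ it rose at 10 min by 0.59 ± 0.19, from 5745, 6409 and 6857 CPM to 8243, 9777 and 10672 CPM, a change of 0.05 with total counts only (adjusted p = 0.829). The change at 45 min was −0.21 ± 0.19 in rrp6Δ and 0.05 ± 0.19 in the double deletion, neither of which was called. Between 10 and 45 min ENO2 fell, at −1.015 ± 0.19 in WT (edgeR's adjusted p = 8.48e-05) and −0.80 ± 0.19 in rrp6Δ. It also fell in mpk1Δ, at −0.58 ± 0.19, a call lost without replicate B at 10 min (−0.47, adjusted p = 0.0715). The mpk1Δ call was lost with total counts only as well (−0.415, adjusted p = 0.0723).

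The share of ENO1 in the enolase counts per coding length rose from 1.42% ± 0.363 to 3.68% ± 1.48 and 9.81% ± 2.64 in WT and from 6.99% ± 0.529 to 29.8% ± 3.02 and 35.8% ± 2.198 in mpk1Δ (SD, n = 3). In rrp6Δ it was 16.6% ± 3.79 and in the double deletion 24.6% ± 7.03 at 45 min. Averaged over the 3 times it was 19.2 points above WT in mpk1Δ, 5.92 in rrp6Δ and 11.7 in the double deletion. At each time all libraries of each deletion strain were above those of WT (exact permutation test with time as stratum, adjusted p = 0.000357 for each, from the smallest p of 0.00025 that 8000 arrangements allow). As for the hexose kinases, these p-values take the 3 times as independent and may be too small.

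At the last step CDC19, the major pyruvate kinase, fell in WT and PYK2, its minor paralog, rose. The PYK2 promoter window (build R64, 5′ to 3′, capitals as for the hexose kinases) is shown because PYK2 moved with GLK1 and HXK1. It holds 1 stress response element, as AGGGG, and 1 Gcr1 core.
PYK2, chrXV:986413-986712, minus strand: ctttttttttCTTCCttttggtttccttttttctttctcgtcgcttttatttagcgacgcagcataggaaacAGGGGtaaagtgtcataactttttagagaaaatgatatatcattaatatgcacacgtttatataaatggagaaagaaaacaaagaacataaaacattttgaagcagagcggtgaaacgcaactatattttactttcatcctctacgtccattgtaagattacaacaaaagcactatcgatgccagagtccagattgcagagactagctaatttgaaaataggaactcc
The windows of TDH1, TDH3 and CDC19 hold 1 stress response element each and those of TDH2, ENO1, ENO2, HXK1 and HXK2 none, so 5 of the 10 members hold one against the 21.6% of all windows given above. CDC19, which fell, and GLK1, which rose, are both among them. A Gcr1 core is in the windows of TDH2, ENO2, HXK1, GLK1 and PYK2, 5 of the 10 members, which is near the 46.3% of all windows. Sites more than 250 bases before the start codon were not searched, so a window without a motif does not show a promoter without it.

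PYK2 was at 6.39, 9.96 and 9.34 CPM in unheated WT, 190, 177 and 197 CPM at 10 min and 166, 125 and 204 CPM at 45 min. It rose by 4.43 ± 0.19 and 4.22 ± 0.19 without overlap (edgeR's adjusted p = 2.92e-18 and 5.56e-18). The unheated level was 23.2, 17.8 and 19.9 CPM in mpk1Δ, 10.97, 15.1 and 10.5 CPM in rrp6Δ and 18.3, 20.8 and 21.4 CPM in the double deletion. All of these lay above WT, that of rrp6Δ by 0.46 ± 0.20, which was not called. At 45 min the levels were 169, 138 and 184, 243, 213 and 208 and 145, 142 and 158 CPM, so that mpk1Δ and the double deletion overlapped WT and rrp6Δ lay above it. From 10 to 45 min PYK2 fell, at −0.67 ± 0.15 in mpk1Δ and −0.47 ± 0.15 in the double deletion, the latter lost without replicate A or B at 45 min or C at 10 min (−0.45 to −0.37, adjusted p 0.0538 to 0.0943).

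CDC19 was at 6066, 6232 and 6611 CPM in unheated WT and at 2596, 2979 and 3156 CPM and 2202, 2464 and 2679 CPM after 10 and 45 min. All heated libraries were lower, with changes of −1.11 ± 0.21 and −1.36 ± 0.21 (edgeR's adjusted p = 1.82e-05 and 6.73e-07). In mpk1Δ it fell from 5806, 5982 and 6435 CPM to 2451, 3582 and 3056 CPM at 10 min and stood at 4584, 4491 and 4285 CPM at 45 min. It rose between these times by 0.56 ± 0.20 in mpk1Δ, lost without replicate A at 10 or 45 min (adjusted p 0.0587 and 0.128), and by 0.90 ± 0.21 in the double deletion. The fall at 45 min against 0 min in mpk1Δ, −0.45 ± 0.20 (adjusted p = 0.0448), was lost when any 1 of the 6 libraries was left out (adjusted p 0.0533 to 0.101). In rrp6Δ CDC19 went from 3777, 4383 and 4487 CPM to 1529.9, 1786 and 1921 CPM and 1311, 2317 and 2570.2 CPM. The double-deletion libraries went from 4368 to 5486 CPM to 1638 to 2849 CPM and back to 3339 to 4282 CPM, where the change against 0 min of −0.36 ± 0.20 was not called.

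PYK2 made up 0.134% ± 0.0273 of the pyruvate kinase counts per coding length in unheated WT, 6.04% ± 0.622 at 10 min and 6.23% ± 1.28 at 45 min. In mpk1Δ these shares were 0.3301% ± 0.0554, 7.92% ± 0.701 and 3.51% ± 0.565, and in rrp6Δ 0.285% ± 0.0543, 12.02% ± 0.6805 and 10.4% ± 4.43. The rrp6Δ share was above WT at all 3 times, by 3.44 points on average (exact permutation test, adjusted p = 0.000357). In mpk1Δ it was above WT at 0 and 10 min and below at 45 min, so that the mean difference of −0.216 points was not called (exact permutation test, adjusted p = 0.712).

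Summed over its isozymes, each step moved in its own way. The hexose kinases together went from 1183 ± 59.5 CPM per kb (SD, n = 3) to 4066 ± 1281 and 4686 ± 1271 in WT, and in rrp6Δ from 1072 ± 68.3 to 9119 ± 1284 and 6592 ± 735 CPM per kb. GAPDH went from 20921 ± 2941 to 38369.6 ± 3138 and 42498 ± 4968 CPM per kb in WT, and from 27975 ± 3095 to 32012 ± 5327 and 30053 ± 2797 in mpk1Δ, where the ranges overlapped. Enolase was at 9841 ± 921, 11034 ± 729 and 5841 ± 747 CPM per kb in WT. Pyruvate kinase went from 4199 ± 187 to 2060.1 ± 192 and 1737 ± 171 CPM per kb in WT, so the rise of PYK2 was small beside the fall of CDC19. These sums were not tested.

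**Figure D4:**
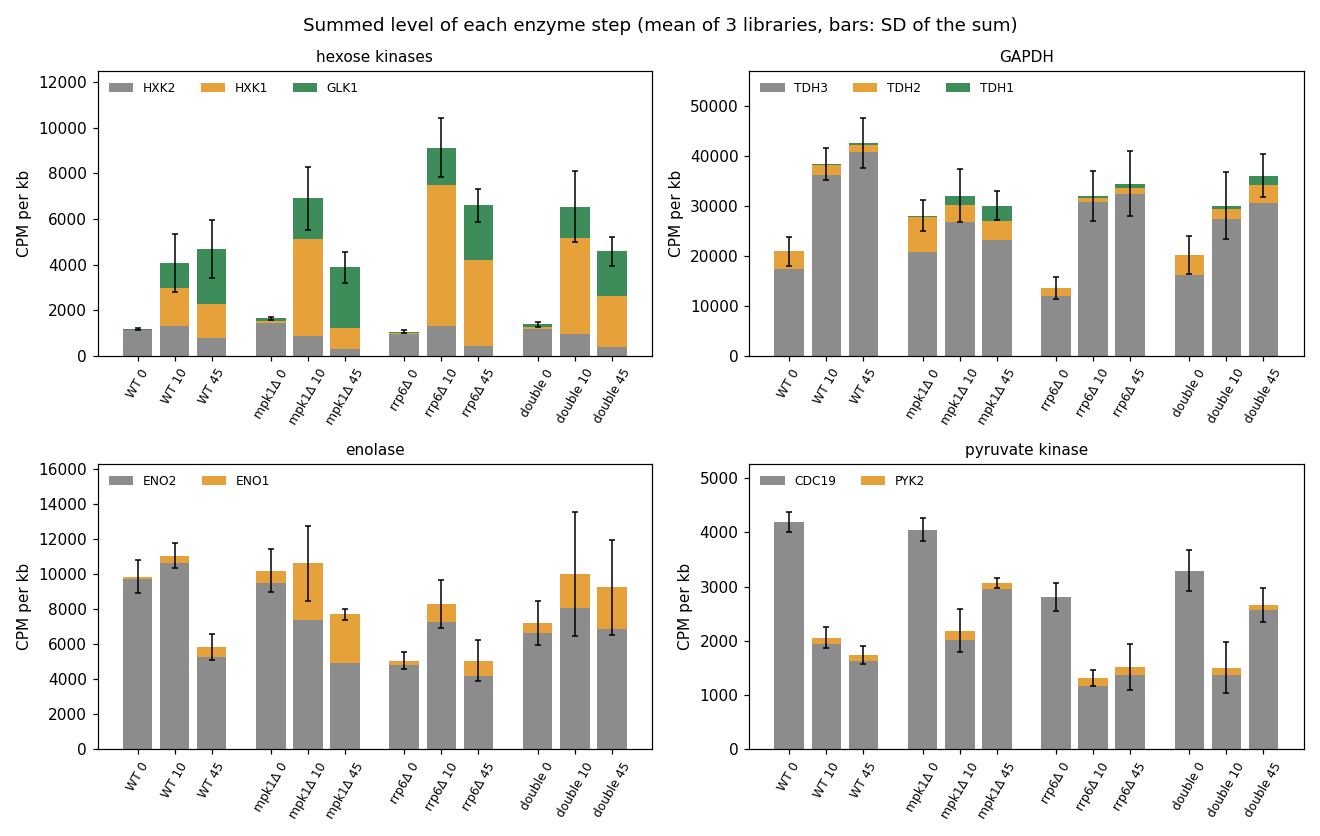
Summed level of each enzyme step (CPM per kb of coding length, mean of 3 libraries) in the 12 groups, split by isozyme, with bars for the SD of the sum. In WT the hexose kinase sum is higher and the pyruvate kinase sum lower in both heated groups than at 0 min.

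The deletion strains were next compared with WT at each time, with the same WT libraries in all 3 comparisons of a time. Before heat, loss of MPK1 went with higher levels of all 5 minor paralogs. In mpk1Δ 6 members rose and 0 fell, against 9.99% and 5.22% of all genes tested, with a median of 1.09 beside −0.01 over all genes. At an unadjusted p under 0.05, 0 members were lower, and DESeq2 called 0 lower. TDH1 was higher by 3.7 ± 0.59 (edgeR's adjusted p = 4.1e-05), HXK1 by 3.31 ± 0.40, ENO1 by 2.32 ± 0.48, GLK1 by 2.17 ± 0.26 and PYK2 by 1.22 ± 0.19, each without overlap with WT. TDH2 was the other, at 0.96 ± 0.33 (adjusted p = 0.0497), and its call was lost when any 1 of the 6 libraries was left out (adjusted p 0.065 to 0.16).

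In unheated rrp6Δ 2 members rose, against 9.32% of all genes, and 2 fell, against 4.64%. HXK1 was higher by 2.59 ± 0.40 and GLK1 by 1.05 ± 0.25, while ENO2 was lower, at −1.01 ± 0.19 and TDH2 at −1.13 ± 0.34. The TDH2 call was lost without rrp6Δ replicate A or B or WT replicate C (−1.15 to −0.985, adjusted p 0.0612 to 0.0932). In the unheated double deletion 5 rose and 1 fell, against 14.8% and 11.6% of all genes. The 5 were the same minor paralogs as in mpk1Δ, with TDH1 at 3.04 ± 0.58, HXK1 at 3.68 ± 0.41, ENO1 at 1.99 ± 0.48, GLK1 at 2.23 ± 0.26 and PYK2 at 1.21 ± 0.19. ENO2 was lower, at −0.55 ± 0.19, a call lost without replicate A of WT, C of WT, or A or B of the double deletion (adjusted p 0.0649 to 0.138).

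At 10 min 5 members were higher and 2 lower in mpk1Δ than in WT, against 22.6% and 22.3% of all genes. TDH1 stood at 3.72 ± 0.55 and ENO1 at 2.97 ± 0.49, while HXK1 at 1.34 ± 0.35, GLK1 at 0.73 ± 0.24 and PYK2 at 0.47 ± 0.15 were closer to WT than before heat. HXK2 was lower, at −0.60 ± 0.14 and ENO2 at −0.52 ± 0.19. The calls of ENO2, GLK1 and PYK2 were each lost without single libraries, namely mpk1Δ replicate A or C or WT replicate B or C for ENO2 (adjusted p 0.0537 to 0.131) and replicate B of either strain for GLK1 and PYK2 (adjusted p 0.0573 to 0.102).

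In rrp6Δ at 10 min 2 were higher and 3 lower, against 14.5% and 15.8%. HXK1 stood at 1.87 ± 0.35 and ENO1 at 1.31 ± 0.47, and the ENO1 libraries overlapped those of WT. TDH2 was lower, at −1.13 ± 0.34, CDC19 at −0.74 ± 0.21 and ENO2 at −0.55 ± 0.19. The ENO1 call was lost without WT replicate A or B or rrp6Δ replicate B or C (0.95 to 1.31, adjusted p 0.0657 to 0.176), and the ENO2 call without rrp6Δ replicate A or B or WT replicate B or C (adjusted p 0.0648 to 0.118).

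For the double deletion at 10 min 3 were higher and 1 lower, against 18.7% and 18.5%. TDH1 stood at 2.53 ± 0.53, ENO1 at 2.27 ± 0.48 and HXK1 at 1.32 ± 0.35. HXK2 was lower, at −0.45 ± 0.14, a call lost without WT replicate C (−0.32, adjusted p = 0.0957). With the replicate letter as a block 7 members passed, as TDH3 at −0.41, ENO2 at −0.42 and CDC19 at −0.51 were then called as well (adjusted p = 0.0375, 0.0364 and 0.0149).

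At 45 min 4 members were higher and 2 lower in mpk1Δ than in WT, against 29.9% and 31.5% of all genes. TDH1 was higher by 3.11 ± 0.54, ENO1 by 2.24 ± 0.48, TDH2 by 1.44 ± 0.34 and CDC19 by 0.86 ± 0.21. HXK2 was lower, at −1.36 ± 0.14 and TDH3 at −0.81 ± 0.20, both without overlap, and TDH3 stood at −0.04 with total counts only (adjusted p = 0.846). HXK1 at −0.72 ± 0.34, GLK1 at 0.15 ± 0.24 and PYK2 at 0.00 ± 0.16 were not called. HXK1 passed as lower with DESeq2 (−0.78, adjusted p = 0.0365), with DESeq2's size factors in edgeR (−0.78, adjusted p = 0.0488) and without WT replicate B (−1.0, adjusted p = 0.0211), and stood at 0.07 with total counts only (adjusted p = 0.863). With total counts only GLK1 was 0.94 and PYK2 0.77 above WT, both called (adjusted p = 0.000293 and 3.94e-05).

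In rrp6Δ at 45 min 2 were higher and 1 lower, against 21.7% and 24.7%. HXK1 stood at 1.31 ± 0.35 and PYK2 at 0.44 ± 0.16, with HXK2 lower, at −0.87 ± 0.14. The PYK2 call was lost without replicate A or B of either strain (0.21 to 0.42, adjusted p 0.057 to 0.313). In the double deletion 4 were higher and 1 lower, against 24.7% and 27.4%. TDH1 stood at 2.34 ± 0.52, ENO1 at 2.04 ± 0.48, TDH2 at 1.38 ± 0.34 and CDC19 at 0.65 ± 0.21, with HXK2 lower, at −1.05 ± 0.14. TDH3, at −0.41 ± 0.20, passed with the replicate letter as a block (−0.42, adjusted p = 0.0245).

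**Figure D5:**
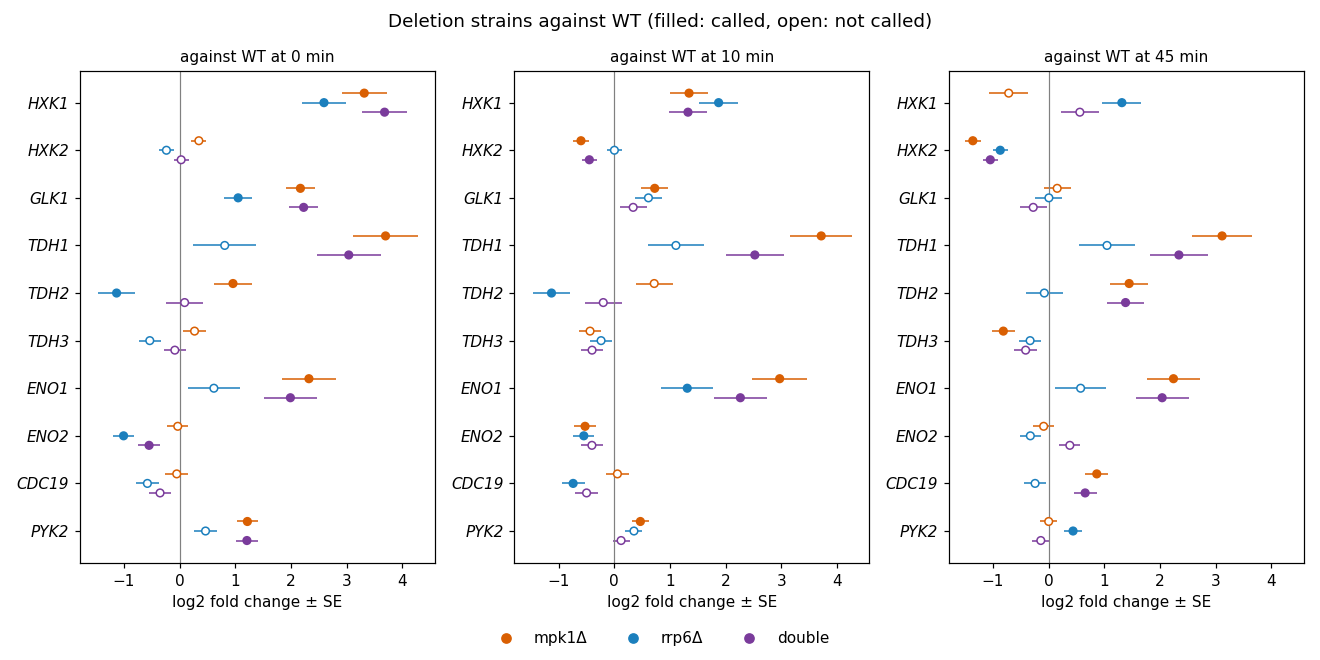
Log2 fold change ± SE of each gene in each deletion strain against WT at 0, 10 and 45 min, filled where the gene passed edgeR's test and open where it did not. TDH1 and ENO1 lie to the right in mpk1Δ and the double deletion at all 3 times, while HXK1, GLK1 and PYK2 lie closer to zero at 45 min than at 0 min in these strains.

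Whether a deletion changed the heat response itself was tested as the difference between the responses of that strain and WT. In mpk1Δ the responses of HXK1, GLK1, PYK2 and HXK2 were lower than in WT at both times. At 10 min 0 members had a higher response and 4 a lower one, against 7.98% and 13.3% of all genes. The differences were −1.97 ± 0.52 for HXK1, −1.44 ± 0.35 for GLK1, −0.94 ± 0.19 for HXK2 and −0.75 ± 0.25 for PYK2, and that of PYK2 was lost when any 1 of 6 libraries was left out, namely replicate A of either strain at 0 or 10 min or C of either strain at 10 min (−0.73 to −0.60, adjusted p 0.051 to 0.109). At an unadjusted p under 0.05, 0 members had a higher response, and DESeq2 called 0 higher.

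At 45 min 1 member had a higher response in mpk1Δ and 5 a lower one, against 17.5% and 24.7%. HXK1 differed by −4.03 ± 0.53 (edgeR's adjusted p = 9.14e-07), GLK1 by −2.02 ± 0.35, HXK2 by −1.71 ± 0.19, PYK2 by −1.22 ± 0.25 and TDH3 by −1.08 ± 0.28, while CDC19 differed by 0.92 ± 0.29. With total counts only the TDH3 difference was −0.46 and not called (adjusted p = 0.113). For TDH1 the difference was −0.58 ± 0.75 and for ENO1 −0.08 ± 0.65, neither called and both with wide SEs.

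In rrp6Δ 0 members differed in response from WT at 10 min by edgeR, against 4.79% higher and 8.38% lower of all genes. DESeq2 also called 0 there, and 0 members had an unadjusted p under 0.05. At 45 min 0 were higher and 2 lower, against 12.6% and 19.6%, with HXK2 at −0.63 ± 0.19 and GLK1 at −1.05 ± 0.35. The GLK1 call was lost without WT replicate A at 45 min or rrp6Δ replicate B at 0 min (adjusted p 0.0638 and 0.057). In the higher direction ENO2 at 0.68 ± 0.27 and TDH2 at 1.05 ± 0.47 had an unadjusted p under 0.05, and DESeq2 called ENO2 (adjusted p = 0.0188).

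In response to heat 3 members differed between the double deletion and WT at 10 min, against 20.2% of all genes in either direction. All 3 were lower, and at an unadjusted p under 0.05, 0 were higher, as with DESeq2. They were HXK1 at −2.35 ± 0.52, GLK1 at −1.89 ± 0.35 and PYK2 at −1.08 ± 0.25. At 45 min 3 were higher and 4 lower, against 15.9% and 21.0%. HXK1 differed by −3.12 ± 0.52, GLK1 by −2.5 ± 0.35, PYK2 by −1.35 ± 0.25 and HXK2 by −1.07 ± 0.19, and in the higher direction TDH2 by 1.29 ± 0.47, CDC19 by 1.01 ± 0.29 and ENO2 by 0.93 ± 0.27. The TDH2 call was lost without any 1 of 5 libraries, and stood at 0.88 without double-deletion replicate C at 45 min (adjusted p = 0.145). In mpk1Δ and the double deletion the unheated levels of HXK1, GLK1 and PYK2 were above WT, and their levels at 45 min overlapped those of WT.

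The double deletion was also compared with the sum of the log2 effects of the single deletions. Unheated, 0 members were above and 1 below the sum, against 0.166% and 0.864% of all genes. The 1 was HXK1, at −2.23 ± 0.52 (edgeR's adjusted p = 0.0217), since mpk1Δ at 3.31 and rrp6Δ at 2.59 each stood above WT and the double deletion stood at 3.68. Its call held in 5 of the 12 fits that left out a library, and the adjusted p rose to at most 0.104. No member was above the sum at an unadjusted p under 0.05, and DESeq2 called 0 above. At 10 min 0 were above and 5 below, against 10.2% and 6.63%, namely TDH1 at −2.3 ± 0.71, ENO1 at −2.02 ± 0.65, HXK1 at −1.89 ± 0.49, GLK1 at −1.0 ± 0.34 and PYK2 at −0.70 ± 0.21. At 45 min 3 were above and 2 below, against 21.5% and 16.8%. HXK2 stood at 1.18 ± 0.19, ENO2 at 0.80 ± 0.27 and TDH3 at 0.73 ± 0.28 above, and TDH1 at −1.82 ± 0.71 and PYK2 at −0.58 ± 0.22 below. Of the 12 fits that left out a library of that time, HXK1 at 10 min and HXK2 at 45 min passed in 12, TDH1, ENO1, GLK1 and PYK2 at 10 min in 6, 5, 4 and 6, and TDH1, TDH3, PYK2 and ENO2 at 45 min in 4, 4, 3 and 10. ENO2 was above the sum at 10 min at an unadjusted p under 0.05, at 0.67 ± 0.27, and DESeq2 called it (adjusted p = 0.0202). With a fit to the 12 libraries of that time alone, 0 members passed at 10 min and 1 at 45 min, and with total counts only TDH3 at 0.18 and ENO2 at 0.26 were not called at 45 min.

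The other genes of the pathway were taken from lists that name its remaining steps, further minor paralogs and side branches. Of the 7 single-copy glycolysis genes, 1 rose and 2 fell in WT at 10 min, against 38.3% and 36.2% of all genes. At 45 min 1 rose and 4 fell, against 41.0% and 39.2%, and the medians at the 2 times were −0.40 and −0.84. PGK1, for phosphoglycerate kinase, rose by 1.24 ± 0.22 and 1.62 ± 0.22. FBA1, for aldolase, changed by −2.76 ± 0.30, TPI1, for triose phosphate isomerase, by −1.96 ± 0.20, GPM1, for phosphoglycerate mutase, by −1.05 ± 0.24 and PGI1, for phosphoglucose isomerase, by −0.84 ± 0.23 at 45 min. PFK1 and PFK2, for the subunits of phosphofructokinase, were at −0.14 ± 0.21 and −0.20 ± 0.22 at that time, not called. In the deletion strains at 45 min 1 of the 7 rose in each, and 6 fell in mpk1Δ, 5 in rrp6Δ and 5 in the double deletion, against 39.5%, 39.0% and 37.9% of all genes that fell. Their median against WT was 0.11 in unheated mpk1Δ and −0.64 in unheated rrp6Δ, beside 1.09 and 0.11 for the 10 isozyme genes.

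Of 6 further minor paralogs listed 4 were tested, of which 3 rose and 1 fell in WT at both times, with medians of 3.87 and 4.07. Of all genes 38.3% and 41.0% rose and 36.2% and 39.2% fell at these times. GPM2, a paralog of the phosphoglycerate mutase gene, rose by 5.3 ± 0.41 and 6.89 ± 0.40, and EMI2, a paralog of GLK1, by 3.46 ± 0.33 and 3.57 ± 0.33. EMI2 was not part of the hexose kinase shares and sums above. GPM3 changed by −1.59 ± 0.21 and −2.24 ± 0.25. In unheated mpk1Δ GPM2 was above WT by 2.59 ± 0.49 and EMI2 by 1.57 ± 0.31. Of 8 genes from pyruvate to ethanol, 4 rose and 2 fell in WT at both times, which is near these shares, from PDC6, a minor pyruvate decarboxylase, at 4.9 ± 0.46 to PDC1, the major one, at −1.47 ± 0.19, with medians of 0.70 and 0.80.

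The lists that follow are of 2 to 4 genes and their counts stand beside the same shares of all genes, 38.3% and 41.0% higher and 36.2% and 39.2% lower. Both gluconeogenesis genes rose in WT at both times, FBP1 by 1.72 ± 0.56 and PCK1 by 3.56 ± 0.39 at 45 min. PFK26 and FBP26, for enzymes that make and remove the sugar bisphosphate that activates phosphofructokinase, rose by 2.32 ± 0.11 and 1.51 ± 0.16, and PFK27 was at −0.19 ± 0.28, not called. Of 4 genes of the glycerol branch 3 rose and 1 fell at both times in WT, with GPD1, for glycerol phosphate dehydrogenase, at 4.79 ± 0.22 and GPP1, for a glycerol phosphatase, at −1.57 ± 0.19. Of 4 genes for factors that act on glycolytic promoters, 3 rose at 10 min and 2 at 45 min, among them GCR1 at 1.42 ± 0.18 and 2.53 ± 0.18 and TYE7 at 2.22 ± 0.22 and 1.74 ± 0.22, while GCR2 was at 0.21 ± 0.10, not called.

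The genes most like each member were those with the highest Pearson correlation of mean log2 CPM over the 12 groups, among 5393 genes that averaged 5 CPM or more, and are given as a description. The most alike were YPC1 (r = 0.99) and GPH1 (0.987), the gene of glycogen phosphorylase, for HXK1, SDS24 (0.99) and GPM2 (0.989) for GLK1, and YGR237C (0.993) and ATG29 (0.991) for PYK2. TDH1 was most like YSC84 (0.977) and LIF1 (0.974), ENO1 most like UGX2 (0.961) and YOR338W (0.952), and HXK2 most like RPL41B (0.981) and MTC7 (0.969). Among the major genes TDH3 was most like STB5 (0.958) and PGK1 (0.945), ENO2 most like GPM1 (0.885) and HOT13 (0.808), TDH2 most like ESS1 (0.914) and ARF2 (0.91), and CDC19 most like CDC21 (0.936). Among the members themselves r was highest for HXK1 and PYK2, at 0.978, then for GLK1 and PYK2, at 0.974. TDH1 and ENO1 had r = 0.958, HXK1 and GLK1 0.947 and TDH2 and CDC19 0.851 over the 12 groups, which share strains and times.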

How the data were processed

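Total RNA libraries of 36 yeast cultures were used. The authors used HISAT2 2.1.0, build R64 and HTSeq, per the submitters' processing notes. The HTSeq version, mode and strand setting are not given in the sources used here. Each of the deposited count files holds 1 whole-number count for each of 6600 genes, with 5 summary lines that stayed out of library sizes and tests.

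Genes were kept with filterByExpr (minimum count 10, minimum total 15), which left 6017. Counts were scaled by TMM (factors 0.618 to 1.388) and fitted in edgeR 4.0.16 (R 4.3.3) with 1 coefficient for each of 12 groups. Their common biological coefficient of variation was 0.1535. In each of 30 comparisons p-values were adjusted by Benjamini-Hochberg over the genes tested, at 0.05. The test was run on simulated data with known changes before use. Isozyme shares used counts per coding length, with exact permutation tests within strains or times. These tests take the strata as independent, so their p-values may be too small where same-letter libraries of different strata correlate. Log2 CPM used a prior count of 2. Levels of TDH2, TDH3, ENO1 and ENO2 are limited by reads that match more than 1 gene, and p-values measure the spread between libraries. Coding sequences and promoters were read from the R64 reference genome by the coordinates of its annotation.

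All 10 members are named, with the 2 genes most like each (1 of those for CDC19 is not reported here), and for the other lists the called genes with the largest and smallest change. The members and lists were chosen with earlier results of these data known. Same-letter libraries correlated above 0.1 for every letter in 8 of the 21 comparisons of 2 groups, at 0.104 to 0.571, and only there were the letters taken to pair libraries. These were WT, mpk1Δ and the double deletion at 45 against 10 min, mpk1Δ against WT at 0 and 45 min, and the double deletion against WT at all 3 times. As alternatives, the replicate block and shares paired by letter were also run where letters did not pair. Such are the block value of TDH3 in mpk1Δ at 10 min, the block count for the rrp6Δ response at 45 min and the paired GLK1 share of rrp6Δ. Alternatives were the filter set to none or to an average of 5 CPM, scaling in edgeR with size factors from DESeq2 or with total counts only, DESeq2 1.42.0 as the test, a fit to only the libraries compared, the replicate letter as a block, leaving out single libraries or the heated letter C pair of the double deletion, and shares without division by length.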

Additional observations from a re-analysis of the deposited data

Results flagged for a closer look

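The results below are heat responses of a deletion strain that differed from the response in WT by edgeR's quasi-likelihood test, and double-deletion values that differed from the sum of the single deletions. All are differences on the log2 scale, and their causes were not tested.

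In mpk1Δ the response at 10 min differed from that in WT by −1.97 for HXK1, −1.44 for GLK1, −0.94 for HXK2 and −0.75 for PYK2. At 45 min the difference was −4.03 for HXK1, −2.02 for GLK1, −1.71 for HXK2, −1.22 for PYK2, −1.08 for TDH3 and 0.92 for CDC19. For HXK1 the unheated mpk1Δ level was above WT by 3.31, and at 45 min the difference from WT was −0.72 and not called by edgeR but called with DESeq2 (−0.78).

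In rrp6Δ the response at 45 min differed by −0.63 for HXK2 and −1.05 for GLK1. In the double deletion the response at 10 min differed by −2.35 for HXK1, −1.89 for GLK1 and −1.08 for PYK2. At 45 min it differed by −3.12 for HXK1, −2.5 for GLK1, −1.35 for PYK2, −1.07 for HXK2, 1.29 for TDH2, 1.01 for CDC19 and 0.93 for ENO2. Most of these response differences passed in all 12 fits that left out a library. PYK2 in mpk1Δ at 10 min passed in 6, GLK1 in rrp6Δ in 10 and TDH2 in the double deletion in 7. The TDH3 difference in mpk1Δ was not called with total counts only.

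Against the sum of the single deletions, unheated HXK1 in the double deletion stood at −2.23. At 10 min TDH1 stood at −2.3, ENO1 at −2.02, HXK1 at −1.89, GLK1 at −1.0 and PYK2 at −0.70. At 45 min TDH1 stood at −1.82, PYK2 at −0.58, HXK2 at 1.18, ENO2 at 0.80 and TDH3 at 0.73. Of these values against the sum, only HXK1 at 10 min and HXK2 at 45 min passed in all 12 fits that left out a library. With a fit to the libraries of that time alone, 0 members passed at 10 min and 1 at 45 min.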

How the results depend on the processing

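The 5 minor paralogs kept their direction and their call in all 8 heat comparisons under each alternative run on all groups, ENO1 in the double deletion at 10 min without replicate C excepted. With only the libraries compared, 5 members rose in the double deletion at 10 min and 5 at 45 min. In the main fit these were 6 at each time, the 5 minor paralogs and TDH3. Scaling by total counts only moved the median of all genes by −0.71 (WT at 45 min) to 0.76 (mpk1Δ against WT at 45 min) on the log2 scale. It changed the sign of 25 of 300 member values, of which 21 were called under neither scaling. The other 4 were HXK2 in rrp6Δ at 10 min (−0.10), ENO2 in the double deletion at 45 min (−0.46), and against WT at 45 min ENO2 in mpk1Δ (0.69) and PYK2 in the double deletion (0.35), and PYK2 in mpk1Δ at 45 min went from 0.00 to 0.77. Counts of members called moved as follows. With only the libraries compared, they were 5 (from 3) for rrp6Δ and 1 (from 5) for the double deletion at 45 against 10 min, 8 (from 4) for unheated rrp6Δ against WT, 4 (from 2) for the rrp6Δ response at 45 min, and 0 and 1 (from 5 and 5) for the departure from the sum at 10 and 45 min. DESeq2 called 5 (from 3) for rrp6Δ against WT at 45 min, 4 (from 2) for its response and 3 (from 5) for the departure at 45 min. Total counts only gave 8 (from 5) for the double deletion against WT at 45 min. The replicate block gave 7 (from 4) for the double deletion against WT at 10 min and 4 (from 2) for the rrp6Δ response at 45 min, and with it the GLK1 share of rrp6Δ, a difference of −6.88 points, was no longer called (paired by letter, adjusted p = 0.0586). Where letters pair libraries, the block added the calls given with the results and changed no other. Leaving out 1 library gave 3 to 6 for the double deletion at 45 against 10 min, 4 to 7 for mpk1Δ and 3 to 6 for rrp6Δ against WT at 10 min, 1 to 4 for the rrp6Δ response at 45 min, and 0 to 1, 1 to 5 and 2 to 4 for the departure at 0, 10 and 45 min. Without both heated C libraries of the double deletion, TDH1 at 45 against 10 min was 1.69 and called, and HXK1 at −0.59 was not. Of 300 member values, DESeq2 called 18 that edgeR did not and lost 2. Counts of the members were lowest in unheated WT replicate A, at 18 for HXK1 and 21 for PYK2, where counting error is largest, and 3 libraries per group leave SEs of up to 0.62 for TDH1 in comparisons of 2 groups.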
